A study of Mus musculus with 20 samples.

Results

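The 10 genes described here, Fabp1, Fabp2, Cd36, Slc27a1, Slc27a2, Slc27a4, Acsl1, Acsl3, Acsl5 and Mfsd2a, serve fatty acid uptake, binding and activation. They were listed by name from the 49997 genes of a RefSeq table of mm10 (GRCm38.p6). Histone marks were read at them by chromatin immunoprecipitation followed by sequencing (ChIP-seq) in livers of male C57BL/6 mice aged 9 weeks, fed chow and then fasted for 24 h. The 4 genotypes were wild type (WT), a knockout of Cpt2 in the liver (Cpt2 L-/-, here Cpt2 KO), a knockout of Ppara (Ppara -/-, here Ppara KO) and the double knockout of both (Cpt2 L-/-;Ppara -/-, here DKO). All samples used here come from fasted animals, so every value belongs to the fasted state. The labels do not name the Cre driver of the Cpt2 deletion, and the Ppara deletion is not described there as confined to the liver. H3K27ac, an acetylation found at active promoters and enhancers, and H3K4me1, a methylation typical of enhancers, each have 2 livers per genotype. For H3K9ac, a second acetylation of active genes, 1 liver of the WT group and 1 of the Cpt2 KO group were available.

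Fatty acids released from adipose tissue in a fast enter hepatocytes through surface proteins such as CD36 and through the Slc27a family, whose members also join fatty acids to coenzyme A. Inside the cell they are carried by the small fatty acid-binding proteins and activated by long-chain acyl-CoA synthetases (the Acsl family), and the acyl-CoA is then oxidised, a step for which CPT2 is needed at the mitochondrial inner membrane. PPARα, the product of Ppara, is a nuclear receptor that binds fatty acids, pairs with RXR on repeats of the sequence AGGTCA and is known to activate many of these genes in the fasted liver.

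An interval counted for a gene when its middle lay in the gene body or within 10000 bases of it. In the authors' consensus sets, 85 of 65776 H3K27ac intervals, 141 of 103014 H3K4me1 intervals and 88 of 46568 H3K9ac intervals did so, and no interval counted for more than 1 of the 10 genes. The value of an interval in a library is the fold over background of its highest overlapping peak, as the authors' peak caller gave it; where no peak overlaps there is no call and no value. Each of the 10 genes had H3K27ac and H3K4me1 intervals. Cd36 had no H3K9ac interval. All 8 livers had called 19 of the 85 H3K27ac intervals and 24 of the 141 H3K4me1 intervals, and these entered the test of folds; the tested set held no interval of Cd36 for either mark, and none of Fabp2 or Slc27a4 for H3K4me1.

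The libraries of a mark held 44454 to 48929 H3K27ac peaks or 61189 to 72151 H3K4me1 peaks. The files give no read totals, so depth in reads is unknown. The median fold of all peaks was 6.69 to 7.17 in the Cpt2-intact H3K27ac libraries and 7.42 to 8.21 in the Cpt2-null ones. Folds printed below are as deposited, while the fitted log2 differences come from folds centred in each library. The narrowest peak of a library was 198 to 210 bases in the 4 Cpt2-intact H3K27ac libraries and 217 to 223 bases in the 4 Cpt2-null ones, so for H3K27ac this property of the libraries and the Cpt2 genotype cannot be told apart; it was balanced over the Ppara genotypes. Animal numbers in the peak names were 6833 to 6848 for the Ppara-null livers and 9548 to 9589 for the others, so the number series and the Ppara genotype cannot be told apart either. All 10 hepatocyte marker genes had H3K27ac calls in all 8 livers, but the number of their intervals called varied. It was 50 and 45 for WT, 34 and 26 for Cpt2 KO, 41 and 53 for Ppara KO and 68 and 42 for DKO. At the deleted genes, 1 H3K27ac interval near Cpt2 was called in the 4 Cpt2-intact livers and in no other, and near Ppara 1 of 26 was called only in the 4 intact and 1 only in the 4 null livers. These are whole livers, in which fewer cells of a type and less of a mark per cell cannot be told apart.

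Loss of Ppara went with lower H3K27ac in the intervals that span the starts of Slc27a1, Slc27a2, Mfsd2a, Fabp1 and Acsl1. The Acsl1 call was lost in most fits that left out 1 library. Against livers with Ppara (WT and Cpt2 KO), livers without it (Ppara KO and DKO) had lower folds at 6 of the 19 tested intervals and higher folds at 0 (limma, Benjamini-Hochberg adjusted p under 0.05). Over all 18281 intervals tested, 4.15% were lower and 3.19% higher. The median log2 difference was -0.21 over the 19 intervals of the 10 genes and -0.01 over all intervals. Loss of Cpt2 (Cpt2 KO and DKO against WT and Ppara KO) went with higher folds at 2 of the 19, near Slc27a4 and Acsl5, and lower folds at 0, beside 4.9% higher and 7.38% lower over all intervals. At H3K4me1, 0 of the 24 tested intervals passed in either comparison, with 3 under an unadjusted p of 0.05 for Ppara and 0 for Cpt2, beside 2721 and 1916 of all 19526.

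**Figure D1:**
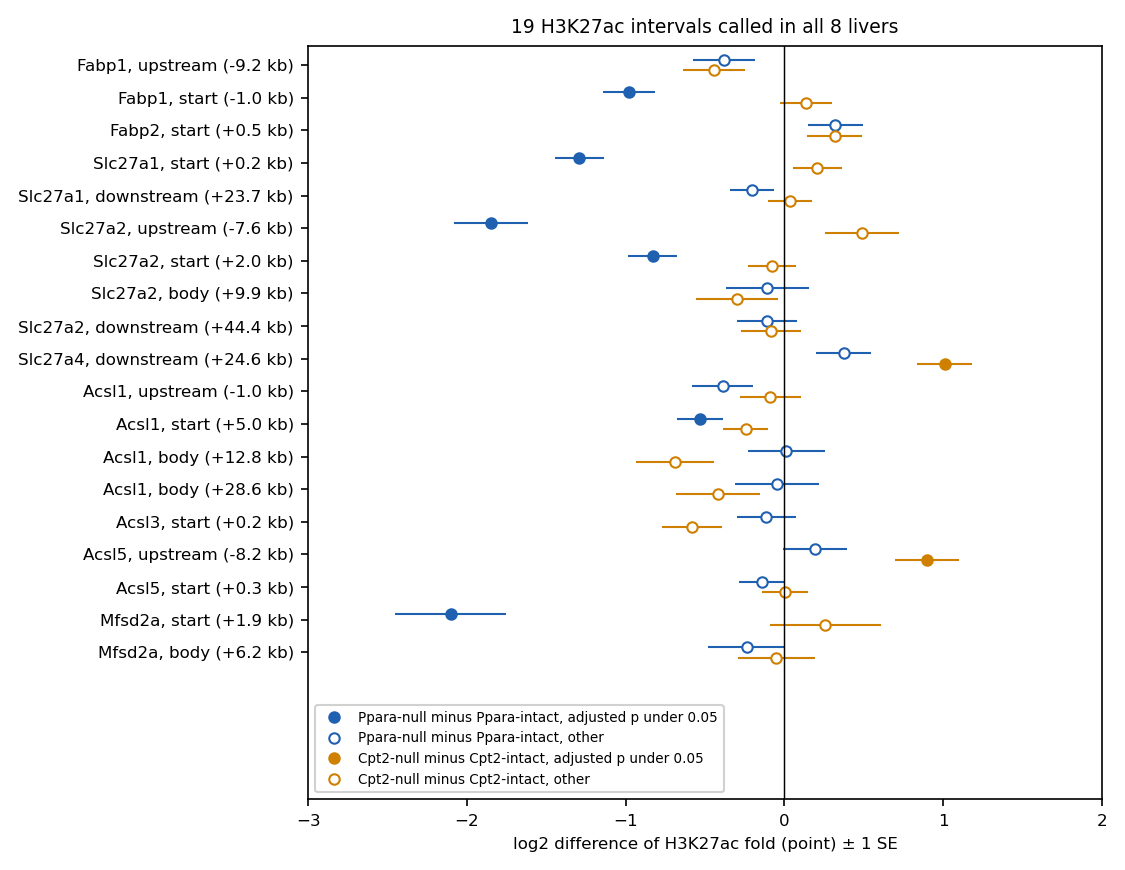
Log2 difference of H3K27ac fold (x axis, point with 1 SE) at the 19 intervals called in all 8 livers, listed by gene with the position of the middle of the interval from the first listed transcription start; blue compares Ppara-null with Ppara-intact livers, orange Cpt2-null with Cpt2-intact, and filled points passed the adjusted p. The 6 filled blue points all lie left of 0 and the 2 filled orange points right of it.

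The bases just before the starts of the genes whose start intervals fell most, and before Cd36, are shown because PPARα pairs with RXR on 2 copies of AGGTCA in the same direction with 1 free base between them. They are 250 bases upstream of the start in RefSeq (GRCm38.p6), written 5′ to 3′ along the gene. Capitals mark a match to this repeat with at most 2 mismatches in its 12 fixed bases on either strand (Fabp1 and Cd36) or, where there is none, the single unit AGGTCA on either strand (Slc27a2 and Mfsd2a).
Fabp1, chr6:71199629-71199878, plus strand: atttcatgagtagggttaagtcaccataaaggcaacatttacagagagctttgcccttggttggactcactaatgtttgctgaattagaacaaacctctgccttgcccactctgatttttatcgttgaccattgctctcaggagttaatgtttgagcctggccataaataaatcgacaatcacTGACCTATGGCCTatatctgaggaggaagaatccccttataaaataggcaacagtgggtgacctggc
Cd36, chr5:17835897-17836146, minus strand: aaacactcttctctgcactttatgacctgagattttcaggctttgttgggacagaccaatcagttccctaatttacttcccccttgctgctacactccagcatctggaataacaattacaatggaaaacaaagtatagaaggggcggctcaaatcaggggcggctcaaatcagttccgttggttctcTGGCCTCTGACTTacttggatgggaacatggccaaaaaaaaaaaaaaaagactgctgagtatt
Slc27a1, start 2 of 3, chr8:71569347-71569596, plus strand: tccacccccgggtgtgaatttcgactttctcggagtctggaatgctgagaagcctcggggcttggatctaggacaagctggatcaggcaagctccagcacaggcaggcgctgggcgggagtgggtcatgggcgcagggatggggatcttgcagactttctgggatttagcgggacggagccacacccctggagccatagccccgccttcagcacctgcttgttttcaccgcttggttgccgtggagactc
Slc27a2, chr2:126552774-126553023, plus strand: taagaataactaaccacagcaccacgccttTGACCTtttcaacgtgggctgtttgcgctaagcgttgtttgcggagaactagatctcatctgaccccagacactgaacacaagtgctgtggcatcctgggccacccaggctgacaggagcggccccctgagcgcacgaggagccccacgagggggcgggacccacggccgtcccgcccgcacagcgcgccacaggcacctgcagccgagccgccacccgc
Mfsd2a, chr4:122961189-122961438, minus strand: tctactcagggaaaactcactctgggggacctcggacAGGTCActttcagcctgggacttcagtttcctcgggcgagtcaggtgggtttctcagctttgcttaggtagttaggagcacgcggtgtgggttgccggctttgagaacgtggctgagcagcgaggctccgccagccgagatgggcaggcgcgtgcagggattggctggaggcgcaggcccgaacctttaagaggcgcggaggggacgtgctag
The Fabp1 match lies at positions -67 to -55 from the start, is on the strand opposite to the gene and has 1 mismatch. The Cd36 match, at -63 to -51, is also on the strand opposite to its gene and has 2 mismatches. Of 32851 RefSeq promoters read over 250 bases before and 50 after the start, 3.86% held a match with up to 2 mismatches and 0.554% one with up to 1. The single unit was found in 16.3% of promoters; overlapping the repeat, it occurs in Fabp1 from -67 and again from -9, and singly in Cd36 from -228, Slc27a2 from -220 and Mfsd2a from -213. No match to the repeat stood in the windows at the starts of Fabp2, Slc27a1, Slc27a2, Slc27a4, Acsl1, Acsl3, Acsl5 or Mfsd2a. A match is a string of letters and not a measured binding site.

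Of the uptake genes, Slc27a1, which encodes the fatty acid transport protein FATP1, had lower H3K27ac at its start without Ppara. The interval chr8:71567085-71571001 spans all 3 listed starts, and its folds were 16.3 and 19.4 for WT, 22.7 and 22.1 for Cpt2 KO, 6.35 and 7.12 for Ppara KO and 9.35 and 11.3 for DKO livers. All 4 Ppara-null livers lay below all 4 others, and the DKO livers stood above the Ppara KO livers. The fold fell by 1.29 ± 0.15 (SE) on the log2 scale (limma, Benjamini-Hochberg adjusted p = 0.000621). The strongest summit stood 87 to 185 bases after the second listed start in every liver. At H3K4me1, which was not tested here because calls were missing, the interval chr8:71568865-71569713 over the starts had folds of 11.6 and 10.4 for WT, 8.4 and 8.73 for Cpt2 KO and 4.5 for DKO replicate 2 alone, with no call in Ppara KO livers. One further interval lies downstream at chr8:71590942-71594156, within the neighbouring gene Pgls, and had the higher mean fold of the 2 H3K27ac intervals; it did not pass for Ppara, with a log2 difference of -0.21 (limma, Benjamini-Hochberg adjusted p = 0.407).

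Slc27a2, the very-long-chain acyl-CoA synthetase FATP2 of liver and kidney, had 2 intervals that fell without Ppara. Upstream of the gene, 7556 bases before its start, the interval chr2:126543642-126547294 had folds of 9.38 and 10.3 for WT, 20.3 and 26.3 for Cpt2 KO, 3.23 and 4.67 for Ppara KO and 6.12 and 3.6 for DKO livers. The Cpt2 KO livers stood highest and all 4 Ppara-null livers lowest, with no overlap. The fold fell by 1.85 ± 0.23 (SE) on the log2 scale (limma, Benjamini-Hochberg adjusted p = 0.000708). The interval over the start, chr2:126549494-126560575, had folds of 17.5 and 22.8 for WT, 32.6 and 23.1 for Cpt2 KO, 13.4 and 14.3 for Ppara KO and 13.9 and 12.3 for DKO livers and fell by 0.83 ± 0.15 (SE) (limma, Benjamini-Hochberg adjusted p = 0.00691). Again the groups did not overlap, by a smaller margin. Its summits are not all at 1 place: in the Cpt2 KO livers no summit stood within 1000 bases of the start, while the other 6 livers had one there. Farther along, the intervals chr2:126560852-126564932 in the gene and chr2:126596194-126598728, which lies in the neighbouring gene Hdc, did not pass for Ppara, with log2 differences of -0.11 and -0.11 (limma, Benjamini-Hochberg adjusted p = 0.851 and 0.78).

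Mfsd2a, a carrier of lysophospholipids that hold long-chain fatty acids such as docosahexaenoic acid, had the largest log2 difference of the 19 intervals. At chr4:122956701-122961941, over the start, folds were 24.4 and 26.4 for WT, 30.3 and 35.9 for Cpt2 KO, 8.42 and 3.52 for Ppara KO and 15.4 and 4.89 for DKO livers. The Ppara-intact livers all stood above the Ppara-null livers, but the Ppara-null livers differed among themselves, and DKO replicate 1 stood highest of them. The fold fell by 2.1 ± 0.35 (SE) on the log2 scale (limma, Benjamini-Hochberg adjusted p = 0.00397). A summit within 1000 bases of the start was called in the 4 Ppara-intact livers, 224 to 237 bases after the start, and at 247 in DKO replicate 1; the other 3 Ppara-null livers had none there. In the interval chr4:122953446-122956608, downstream in the gene, folds overlapped, at 10.6 and 10.4 for WT, 9.09 and 17.9 for Cpt2 KO, 7.27 and 12.4 for Ppara KO and 9.64 and 11.5 for DKO livers, and the log2 difference was -0.24 (limma, Benjamini-Hochberg adjusted p = 0.598).

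Fabp1, the abundant fatty acid-binding protein of hepatocytes, carried a broad H3K27ac interval over its start, chr6:71193024-71204761. The folds there were 15.7 and 17.4 for WT, 25.7 and 25.6 for Cpt2 KO, 8.62 and 11.7 for Ppara KO and 9.08 and 14.1 for DKO livers. Cpt2 KO livers stood highest, and the 4 Ppara-null livers stood below the others. The fold fell by 0.98 ± 0.16 (SE) on the log2 scale (limma, Benjamini-Hochberg adjusted p = 0.00397). The start was also read by peaks with a summit within 1000 bases of it. Their folds were 14.7 and 17.4 for WT, 25.7 and 25.6 for Cpt2 KO and 9.08 and 13.6 for DKO. The Ppara KO livers had no peak with such a summit, but both had called the interval, with the folds of 8.62 and 11.7. In them the peak that gave the interval its fold had its summit at positions -2247 and -1789 from the start. Upstream, at chr6:71190154-71191173, folds ranged from 7.40 in DKO replicate 2 to 14.0 in Cpt2 KO replicate 2, and the log2 difference for Ppara was -0.38 (limma, Benjamini-Hochberg adjusted p = 0.266).

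Acsl1, the main long-chain acyl-CoA synthetase of liver, had the highest mean fold of the 6. The interval chr8:46470994-46481150, over its first listed start, had folds of 25.5 and 37.4 for WT, 22.8 and 25.8 for Cpt2 KO, 16.6 and 17.2 for Ppara KO and 23.4 and 20.9 for DKO livers. DKO replicate 1, at 23.4, stood above Cpt2 KO replicate 1, so the groups overlapped. The fold fell by 0.53 ± 0.14 (SE) (limma, Benjamini-Hochberg adjusted p = 0.0407), and this call was lost in 6 of the 8 fits that left out 1 library, with adjusted p up to 0.178. The other 5 Ppara calls stayed below 0.05 in all 8 such fits. The Acsl1 call was also lost without centring, under quantile normalization and with the smallest peak width as a covariate. The other 5 were kept in each of these 3 settings. The interval around the second listed start of Acsl1, chr8:46487618-46492516, whose middle lies 19030 bases after the first, was called with folds of 7.6 and 10.7 for WT and 7.5 and 6.64 for Cpt2 KO, with no call in Ppara KO or DKO livers.

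**Figure D2:**
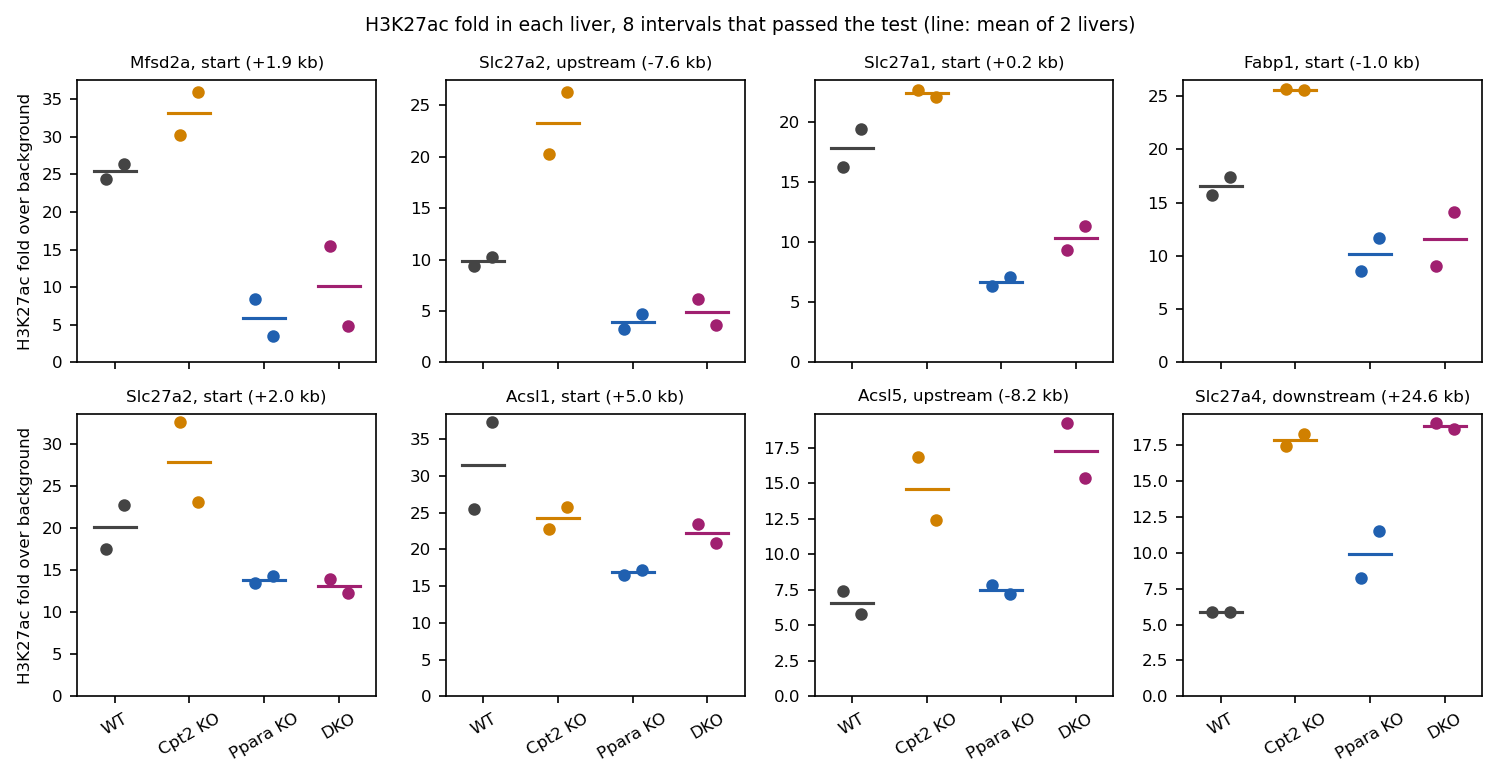
H3K27ac fold over background (y axis) in each liver, by genotype, for the 8 intervals of the 10 genes that passed the Ppara or the Cpt2 comparison; points are livers, lines the mean of 2 livers, and titles give the position of the middle of the interval from the first listed start. In 5 of the first 6 panels all 4 livers without Ppara lie below all 4 with it, Acsl1 being the exception, and in the last 2 all 4 livers without Cpt2 lie above all 4 with it.

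At the starts themselves, the highest peak with its summit within 1000 bases was read, and a liver without such a peak counted as 0. This value was lower in all 4 Ppara-null than in all 4 Ppara-intact livers for Fabp1, Slc27a1, Slc27a4 and Mfsd2a. The same order held for 2.76% of 13556 listed starts with a call. At Slc27a4, which encodes FATP4, these folds were 6.84 and 10.9 for WT, 13.7 and 11 for Cpt2 KO, 4.2 for Ppara KO replicate 1 alone and 5.76 and 6.23 for DKO. Since the start interval of Slc27a4 lacked a call in Ppara KO replicate 2, it was not tested. The Ppara order did not hold at Slc27a2, where the Cpt2 KO livers had no summit within 1000 bases and counted as 0. Over the whole start interval these livers had folds of 32.6 and 23.1, so this result rests on the summit window. Nor did the Ppara order hold at the first start of Acsl1, where the livers with and without Ppara overlapped. The opposite order held for no start of the 10 genes, beside 0.996% of all. For Cpt2, only Fabp2 had all 4 null livers above all 4 intact ones, beside 16.8% of all starts. Its folds were 5.11 and 6.13 for WT, 11.7 and 10.6 for Cpt2 KO, 9.62 and 9.4 for Ppara KO and 10.4 and 11 for DKO livers. The opposite order held for 0 of the 10 genes, beside 0.73%. These orders use folds as deposited, and the Cpt2-null libraries had the higher median folds. After centring, the start interval of Fabp2 did not pass for Cpt2 (limma, Benjamini-Hochberg adjusted p = 0.233). For H3K4me1 the Ppara-null livers all stood lower at starts 1 and 2 of Slc27a1, beside 1.56% of 12958 starts, and at 0 starts higher, beside 1.66%. At the start of Slc27a2 all 4 Cpt2-null livers stood lower, with H3K4me1 folds of 5.86 and 5.33 for WT, 4.38 for Cpt2 KO replicate 2 alone, 5.11 and 5.25 for Ppara KO and 5.1 and 3.76 for DKO, beside 0.532% of all starts, and 0 starts of the 10 genes had the opposite order, beside 1.18%.

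The 2 intervals that rose without Cpt2 lie away from the starts. Near Slc27a4, the interval chr2:29826527-29827857, 9670 bases beyond the gene and 197 bases from the neighbouring gene Urm1, had folds of 5.86 and 5.88 for WT, 17.4 and 18.3 for Cpt2 KO, 8.26 and 11.5 for Ppara KO and 19 and 18.7 for DKO livers. The Cpt2-null livers lay within a narrow range above all others, and the Ppara KO livers stood above the WT livers. The fold rose by 1.01 ± 0.17 (SE) on the log2 scale (limma, Benjamini-Hochberg adjusted p = 0.00586). Upstream of Acsl5, an acyl-CoA synthetase of liver and intestine, chr19:55244706-55245659 had folds of 7.4 and 5.79 for WT, 16.8 and 12.4 for Cpt2 KO, 7.8 and 7.22 for Ppara KO and 19.2 and 15.4 for DKO livers and rose by 0.90 ± 0.20 (SE) (limma, Benjamini-Hochberg adjusted p = 0.0157). All 4 Cpt2-null livers again stood above the 4 others. With the smallest peak width as a covariate neither call held, nor did any of the 2245 Cpt2 calls over all intervals. In H3K27ac this width separates Cpt2-null from Cpt2-intact libraries without overlap, so that fit cannot judge the Cpt2 calls. The Acsl5 call was also lost without Cpt2 KO replicate 1, without Ppara KO replicate 2 or without DKO replicate 1, with adjusted p up to 0.0671.

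At the start of Acsl5, chr19:55253009-55254424, folds were 18.7 and 23.6 for WT, 18.7 and 20.5 for Cpt2 KO, 13.2 and 17.2 for Ppara KO and 24.5 and 22.6 for DKO livers. The Ppara KO livers stood below all others, while the DKO livers stood within or above the range of WT. The log2 differences were -0.14 for Ppara and 0.00 for Cpt2, and neither passed (limma, Benjamini-Hochberg adjusted p = 0.615 and 0.989). Inside the gene, the interval chr19:55257855-55261501 had folds of 12.7 and 8.25 for WT, 13.2 and 9.57 for Cpt2 KO and 5.05 for DKO replicate 2 alone, with no call in Ppara KO, so 3 of the 4 Ppara-null livers lacked a call there. Acsl3, an acyl-CoA synthetase of the endoplasmic reticulum and lipid droplets, had folds of 15.2 and 24.4 for WT, 11.8 and 11.3 for Cpt2 KO, 11.6 and 16 for Ppara KO and 17.1 and 12.5 for DKO livers over its start, chr1:78656410-78659574, an interval shared with the body of Utp14b. It passed in neither comparison, with adjusted p of 0.771 for Ppara and 0.0577 for Cpt2 (limma, Benjamini-Hochberg).

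The difference between the Cpt2 effect without and with Ppara (the interaction) passed at 0 of the 19 H3K27ac intervals (6 at an unadjusted p under 0.05, beside 2771 of all 18281), and the adjusted calls over all intervals were 0.00547% lower and 0.0% higher. It passed at 0 of the 24 H3K4me1 intervals (0 unadjusted, beside 566 of all 19526), with 0.0% of all in each direction. So the 2 deletions were not shown to depend on each other at any tested interval of these genes. Set against WT one genotype at a time, Ppara KO had 4 lower H3K27ac intervals of the 10 genes and 0 higher (3.59% and 2.83% over all), Cpt2 KO had 2 lower and 2 higher (7.69% and 5.82%), and DKO had 7 lower and 2 higher (11.5% and 8.62%). At H3K4me1, 0 of the 24 tested intervals passed in any of the 3, beside 0.0973% higher and 0.0358% lower of all intervals for DKO and 0.0% for the other 2. These 3 comparisons share the 2 WT livers. Of the 7 lower H3K27ac intervals in DKO, chr6:71190154-71191173 upstream of Fabp1 was nearest the threshold (limma, Benjamini-Hochberg adjusted p = 0.0495). It did not pass without centring or under quantile normalization. Without centring, DKO had 3 lower and 3 higher H3K27ac intervals of the 10 genes. The start of Slc27a1 had log2 differences from WT of -1.39 in Ppara KO, 0.11 in Cpt2 KO and -1.08 in DKO. For the upstream interval of Slc27a2 they were -1.33, 1.01 and -1.36, and for the downstream interval of Slc27a4 0.75, 1.38 and 1.39. Of these values, those of Slc27a1 and Slc27a2 in Cpt2 KO and that of Slc27a4 in Ppara KO did not pass. The 2 intervals lower in Cpt2 KO than in WT were the start of Acsl3 (log2 difference -0.96) and an interval in the body of Acsl1, chr8:46482674-46485056 (log2 difference -1.14); the first was lost in 3 and the second in 5 of the 8 fits that left out 1 library.

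Cd36, the fatty acid translocase of the cell surface, had H3K27ac that was called mostly in the Cpt2 KO livers. Of its 11 H3K27ac intervals, 10 and 9 were called in the 2 Cpt2 KO livers, 2 and 0 for WT, 2 and 2 for Ppara KO, and 3 and 3 for DKO. Of the 85 H3K27ac intervals near the 10 genes, 9 were called in both Cpt2 KO livers and in no other. Over all H3K27ac intervals 1.83% had this pattern. Of the 9, 4 were of Cd36, 3 of Fabp1 and 1 each of Slc27a4 and Mfsd2a. In contrast, 4 of the 85 intervals, none of Cd36, were called in both WT livers and in no other, beside 3.29% of all. The strongest of the 4 Cd36 intervals called only in the Cpt2 KO livers, chr5:17848071-17849843, had folds of 14.6 and 13.1 there. The strongest Cd36 interval, chr5:17880009-17882222, has its middle at position -45220 from the listed start, within the annotated gene body, and had folds of 9.05 for WT replicate 1 alone and 19.2 and 23.5 for Cpt2 KO, with no call in Ppara KO or DKO. Its neighbour chr5:17876347-17877876 had folds of 7.86 for WT replicate 1 alone, 19.9 and 16.8 for Cpt2 KO, 7.43 and 4.5 for Ppara KO and 7.5 and 9.75 for DKO livers. Both Cpt2 KO livers exceeded every other liver at these 2 intervals.

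At the listed start of Cd36, in contrast, chr5:17834941-17836934 had folds of 5.33 and 6.88 for Cpt2 KO, 6.94 and 5.9 for Ppara KO and 11.4 and 7 for DKO, with no call in WT. WT livers alone lacked a call there, and DKO replicate 1 stood highest. An interval 5389 bases inside the gene, chr5:17830238-17830775, was called in all 4 Cpt2-null livers and in 0 of 4 others, with folds of 7.16 and 9.11 for Cpt2 KO and 6.14 and 5.47 for DKO, with no call in WT or Ppara KO. It was the 1 interval of the 85 (1.18%) called in at least 3 of the 4 Cpt2-null livers and in 0 of the 4 others, beside 4.5% over all intervals. H3K4me1 calls near Cd36 numbered 10 and 6 for Cpt2 KO, 3 and 0 for WT, 0 and 1 for Ppara KO, and 3 and 3 for DKO. Overlapping the H3K27ac interval farthest upstream, the H3K4me1 interval chr5:17879890-17882300 had folds of 4.5 for WT replicate 1 alone and 12.8 and 7.98 for Cpt2 KO, with no call in Ppara KO or DKO. Without WT replicate 2, the liver with no Cd36 call of either mark, WT replicate 1 still had fewer calls than each Cpt2 KO liver. Cd36 is also expressed in macrophages and endothelium. H3K27ac intervals near 10 macrophage markers were called 7 and 6 times for WT, 18 and 17 for Cpt2 KO, 10 and 13 for Ppara KO and 33 and 38 for DKO, with Marco never called. Near 8 endothelial markers the calls numbered 60 and 56, 71 and 69, 81 and 57, and 71 and 66 in the same order, and near 8 stellate cell markers 7 and 5, 19 and 18, 8 and 7, and 12 and 16, with Col1a1 never called. The part of these cells in the Cd36 calls was not tested.

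**Figure D3:**
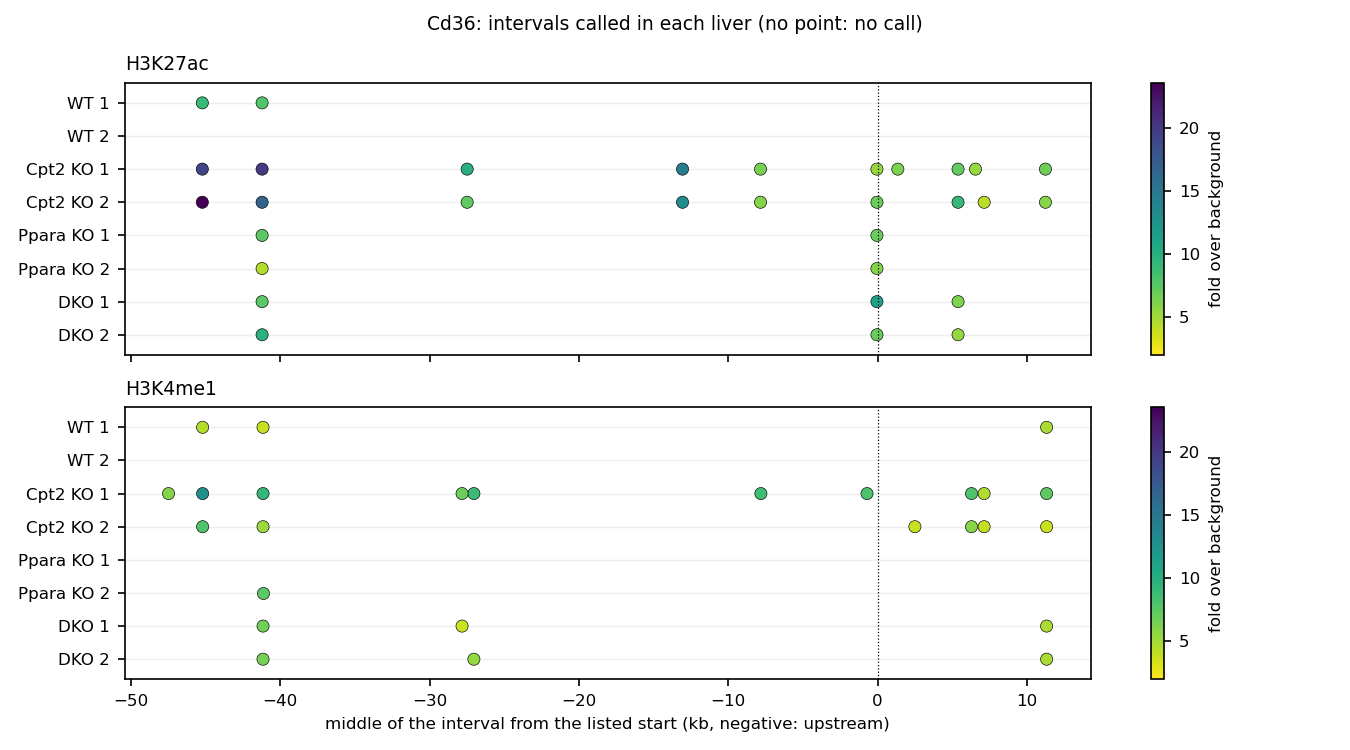
Cd36 intervals called in each liver (rows), placed by the distance of their middle from the listed start in kb (x axis); colour gives the fold over background and a missing point means no call. The 2 Cpt2 KO rows hold 10 and 9 H3K27ac points and the 2 WT rows 2 and 0.

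Fabp2, the intestinal fatty acid-binding protein, had 2 H3K27ac intervals. The one 6942 bases upstream, chr3:122887152-122889108, had folds of 6.22 and 6.57 for WT, 16.1 and 13.7 for Cpt2 KO and 4.11 and 10.0 for DKO, with no call in Ppara KO. Like the Cd36 intervals chr5:17880009-17882222 and chr5:17876347-17877876, but unlike the one at the Cd36 start, it was highest in the Cpt2 KO livers. At the start, chr3:122894626-122896526, all 8 livers had a call, the 2 WT livers the lowest, and the log2 differences were 0.32 for Ppara and 0.32 for Cpt2 (limma, Benjamini-Hochberg adjusted p = 0.288 and 0.233). Around Fabp1, 3 intervals downstream of the gene were called in both Cpt2 KO livers and in no other. They were weak, with folds of 4.60 to 6.02.

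Acsl1, the gene with the most intervals, also had the most that lacked calls without Ppara. Near it, 16 and 22 H3K27ac intervals were called in the WT livers, 10 and 14 for Cpt2 KO, 8 and 12 for Ppara KO and 6 and 7 for DKO. Of the Acsl1 intervals, 3 were called in at least 3 of the 4 Ppara-intact livers and in 0 of the 4 Ppara-null ones, and so were 1 of Cd36 and 1 of Mfsd2a. Beside the one at the second start, the Acsl1 intervals were chr8:46494954-46496167, with folds of 4.5 and 8.4 for WT and 4 for Cpt2 KO replicate 2 alone, with no call in Ppara KO or DKO, and chr8:46508449-46509511, with folds of 6.4 and 5 for WT and 5.16 for Cpt2 KO replicate 2 alone, with no call in Ppara KO or DKO. The one of Mfsd2a, chr4:122950408-122953220, had folds of 4.33 and 5.32 for WT and 4.93 and 6.86 for Cpt2 KO, with no call in Ppara KO or DKO. These 5 are 5.88% of the 85 intervals, beside 1.73% over all intervals; the reverse pattern held for 0 of the 85, beside 1.63%. One Acsl1 interval, chr8:46481817-46482292, was lost with Cpt2 instead, with folds of 5.17 and 9.67 for WT and 3.57 and 4.43 for Ppara KO, with no call in Cpt2 KO or DKO; over all intervals 2.49% were called in at least 3 of 4 Cpt2-intact livers and in 0 Cpt2-null ones. The first start of Acsl1 kept its call in all 8 livers.

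H3K4me1 calls were also fewer without Ppara, while no tested H3K4me1 fold of the 10 genes passed. Of the 141 intervals, 20 were called in at least 3 of the 4 Ppara-intact livers and in 0 of the Ppara-null livers (14.2%, beside 2.84% over all), and 2 had the reverse pattern (beside 1.96%). The 20 were 8 of Acsl1, 3 each of Slc27a2 and Acsl5, 2 each of Slc27a1 and Mfsd2a and 1 each of Acsl3 and Cd36. For Cpt2, 0 intervals were gained or lost by call, beside 1.41% and 1.3%. Library properties moved with this pattern. The H3K4me1 libraries of WT replicates 1 and 2, Cpt2 KO replicate 2 and Ppara KO replicate 1 had a narrowest peak of 196 to 200 bases and covered 52.5 to 53.5 Mb, while the other 4 had 210 to 221 bases and covered 38.8 to 46.0 Mb. Of the 20 intervals, 18 were called in all 3 Ppara-intact livers of the first set, whose libraries covered more bases. Over the genome this held for 2458 of the 2930 intervals lost in this way. Of the 20, 8 were called in Cpt2 KO replicate 1, the single Ppara-intact liver among the other 4 libraries, beside 1094 of the 2930. The part of this library property in the lost calls was not tested.

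**Figure D4:**
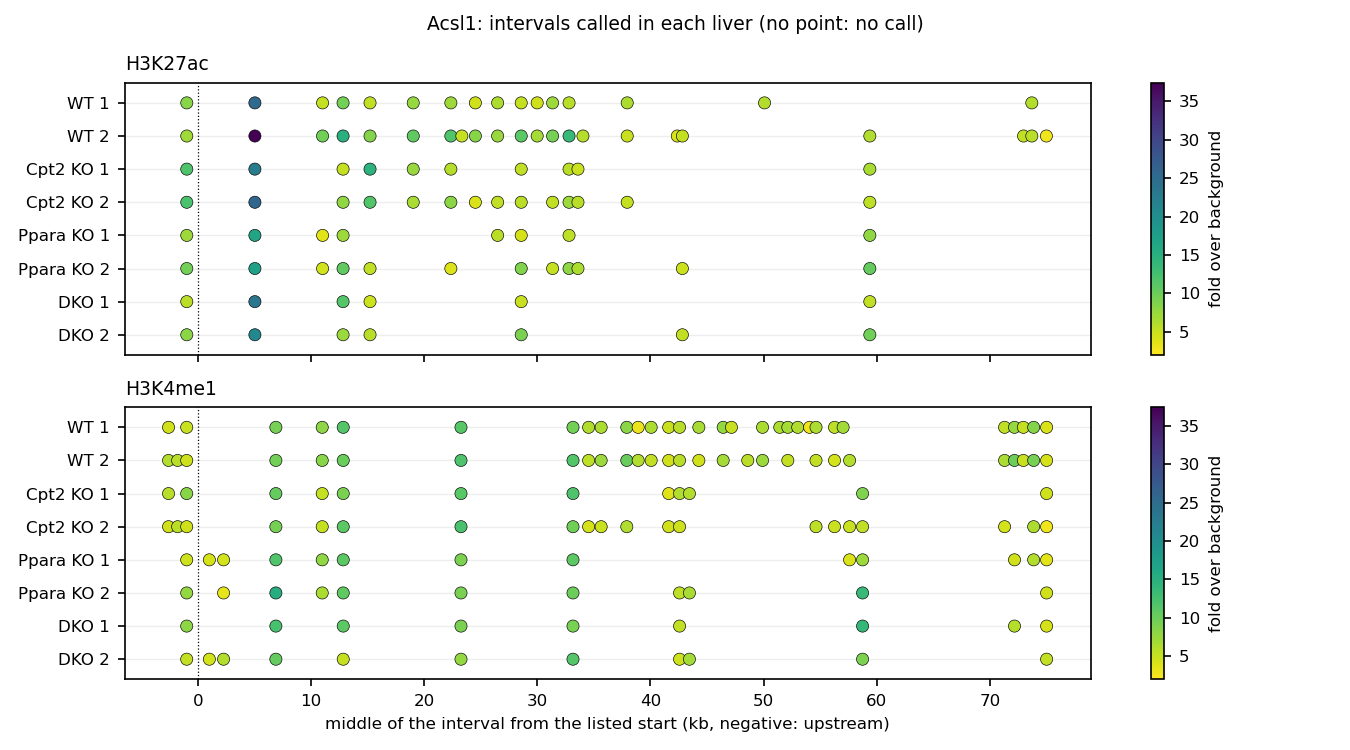
Acsl1 intervals called in each liver (rows), placed by the distance of their middle from the first listed start in kb (x axis); colour gives the fold over background and a missing point means no call. The strongest H3K27ac interval, over the first start, is called in all 8 livers, while the 2 WT rows hold 16 and 22 H3K27ac and 30 and 28 H3K4me1 points and the 2 DKO rows 6 and 7 and 9 and 11.

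Of the 8 H3K4me1 intervals near Acsl1 lost in this way, 1 had its middle before the first start (position -2597) and 7 had it between 34532 and 71297 bases after it. The others stood at -4230, 11247 and 22538 for Acsl5, at 13914, 14832 and 16017 for Slc27a2, at -2494 and -1147 for Slc27a1, at -1388 and -5567 for Mfsd2a, at -772 for Acsl3 and at -45199 for Cd36. Folds where called ran from 3.62 to 12.8, the highest being that of Cd36 in Cpt2 KO replicate 1. H3K4me1 calls near the gene numbered 30 and 28 for WT, 12 and 20 for Cpt2 KO, 13 and 11 for Ppara KO and 9 and 11 for DKO, and 7 intervals were called in both WT livers and in no other. Over all H3K4me1 intervals 1.85% were. In the large block that begins before the second start, chr8:46485228-46503349, folds were 11.3 and 11.9 for WT, 11.3 and 12.2 for Cpt2 KO, 9.01 and 9.17 for Ppara KO and 9.14 and 7.78 for DKO livers. All 4 Ppara-null livers lay below all others, yet the log2 difference of -0.41 did not pass (limma, Benjamini-Hochberg adjusted p = 0.322). A gain was seen just after the first start, where chr8:46472645-46473961 had folds of 4.4 and 3.36 for Ppara KO and 6.14 for DKO replicate 2 alone, with no call in WT or Cpt2 KO. At Mfsd2a the interval chr4:122959903-122961066, 703 bases after the start, was called in all 4 Ppara-null livers (folds 4.71 and 4.32 for Ppara KO and 4.62 and 4.67 for DKO, with no call in WT or Cpt2 KO), next to the H3K27ac start peak that these livers lacked or had at a lower fold. Upstream of that start, chr4:122962020-122963132 showed the reverse, with folds of 5.99 and 6.61 for WT and 5.91 and 6 for Cpt2 KO, with no call in Ppara KO or DKO. Neither gain kept this pattern when only peaks with a -log10 q of at least 10 were counted.

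The strongest H3K4me1 interval passed for none of the 7 genes in which it was called in all 8 livers. For Fabp1, chr6:71193053-71202673, over the start, had folds of 12 and 13.2 for WT, 11.4 and 9.44 for Cpt2 KO, 5.57 and 9.35 for Ppara KO and 9.3 and 10.9 for DKO livers and a log2 difference for Ppara of -0.43 (limma, Benjamini-Hochberg adjusted p = 0.363). Ppara KO replicate 1 stood lowest. The interval just before the start of Slc27a2, chr2:126549513-126552767, had folds of 9.43 and 9.32 for WT, 10.2 and 8.94 for Cpt2 KO, 9.72 and 9.5 for Ppara KO and 9.73 and 10.5 for DKO livers, a range narrower than that of H3K27ac at this gene, and a log2 difference of 0.06 (limma, Benjamini-Hochberg adjusted p = 0.921). In Acsl1 it lies after the first start, at chr8:46474668-46481184, and the Ppara KO livers stood above WT, with folds of 9.46 and 9.52 for WT, 10.4 and 9.33 for Cpt2 KO, 11.7 and 15.3 for Ppara KO and 12.3 and 10.4 for DKO livers (log2 difference 0.35 with a limma and Benjamini-Hochberg adjusted p = 0.408). The log2 differences for Ppara were -0.30 at chr1:78658277-78659808 of Acsl3, -0.05 at chr19:55250046-55251610 of Acsl5, 0.40 at chr4:122953420-122956549 of Mfsd2a and 0.01 at chr8:71592372-71594411 near Slc27a1, which lies in Pgls. The strongest interval of the other 3 genes lacked calls. It was chr5:17843228-17844191 for Cd36, called only in Cpt2 KO replicate 1 with a fold of 8.75, chr3:122887004-122889042 for Fabp2, with folds of 4.67 for WT replicate 1 alone, 10.9 and 4.57 for Cpt2 KO, 4.88 and 5.12 for Ppara KO and 7.12 and 7.62 for DKO, and chr2:29826226-29826560 for Slc27a4, called in 3 livers with folds of 6.17 to 7.58. Over the 24 tested H3K4me1 intervals no Ppara, Cpt2 or interaction p passed after adjustment; over all 19526, 0.0461% were higher and 0.0819% lower for Ppara, and 0.0% in each direction for Cpt2.

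Counting bases under peaks in each gene body and 10000 bases to either side takes intervals without a call into account. By this measure all 4 Ppara-null livers lay below all 4 Ppara-intact livers in 6 of the 10 genes for H3K27ac: Fabp1, Slc27a1, Slc27a2, Acsl1, Acsl5 and Mfsd2a. This order held for 5.62% of the 14430 protein-coding genes with any called base, and the opposite order, held by none of the 10, for 4.12%. Called H3K27ac bases at Acsl5 were 9090 and 8422 for WT, 5431 and 8017 for Cpt2 KO, 2656 and 3003 for Ppara KO and 1959 and 3395 for DKO. Around Acsl1 they were 26633 and 33680 for WT, 18055 and 22565 for Cpt2 KO, 12389 and 15637 for Ppara KO and 10089 and 9176 for DKO, so the Cpt2 KO livers stood between WT and the Ppara-null livers. At Cd36 they were 1389 and 0 for WT, 9841 and 9919 for Cpt2 KO, 1306 and 725 for Ppara KO and 2936 and 2692 for DKO, the only one of the 10 genes where all Cpt2-null livers exceeded all Cpt2-intact ones, beside 10.4% of all genes. For H3K4me1, 4 of the 10 genes (Slc27a1, Slc27a2, Acsl3 and Acsl5) had less in all 4 Ppara-null livers, beside 3.92% of 14938 genes. The opposite order held for 0, beside 3.26%. H3K4me1 libraries differed in bases covered over the genome. WT replicates 1 and 2, Cpt2 KO replicate 2 and Ppara KO replicate 1 covered 52.5 to 53.5 Mb, the remaining libraries 38.8 to 46.0 Mb. The part of this property in the called bases was not tested. For Cpt2 the H3K4me1 bases of all 10 genes overlapped between null and intact livers, beside 2.15% of genes lower and 1.32% higher, as did the H3K27ac bases of all but Cd36 (10.6% lower over all genes).

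**Figure D5:**
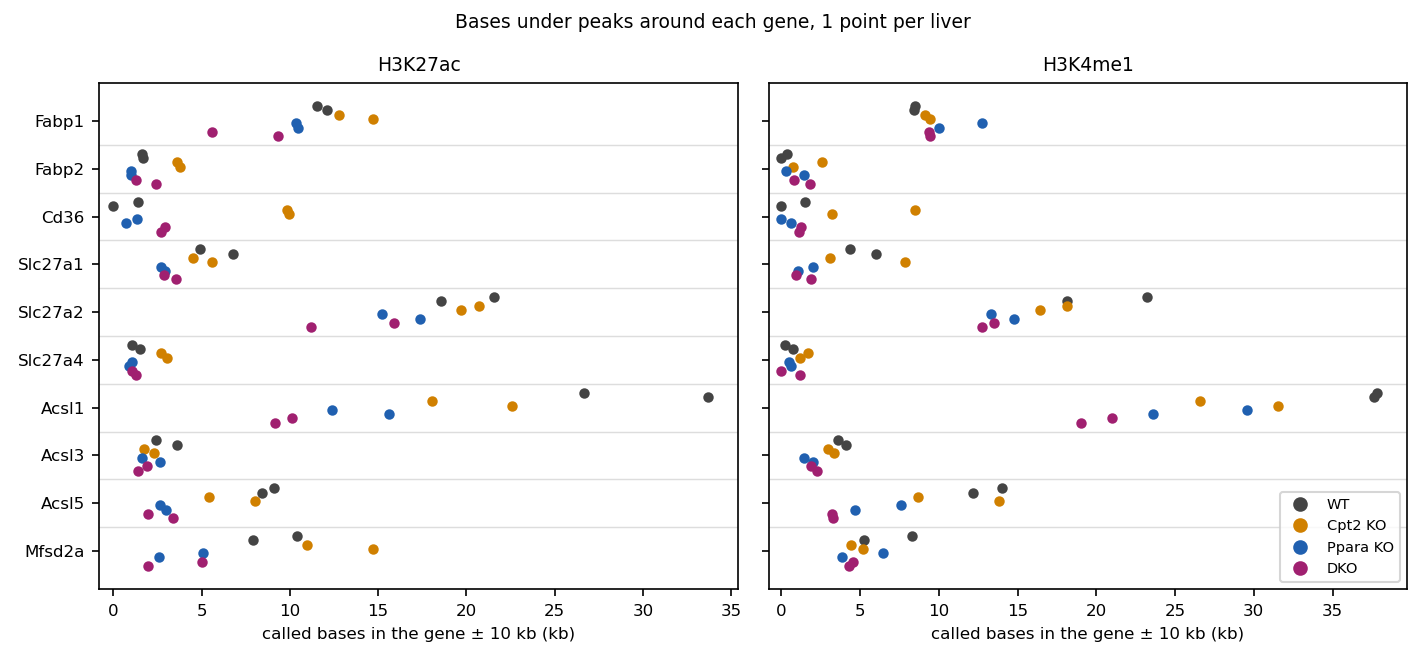
Bases under peaks (x axis, kb) in each gene body and 10 kb to either side, 1 point per liver, coloured by genotype, for H3K27ac (left) and H3K4me1 (right). In the left panel the blue and purple points (no Ppara) lie left of the black and orange points in 6 of the 10 rows, and at Cd36 the 2 orange points stand far to the right.

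H3K9ac, with 1 library per genotype and positions only, allows no test. Of the 88 intervals near the 10 genes, 46 were present in both livers, 28 in WT only and 14 in Cpt2 KO only; these are 52.3%, 31.8% and 15.9%, beside 55.2%, 20.8% and 23.9% over all 46568. The WT-only intervals came from Acsl1 (12 of its 27), Slc27a2 (8 of 16), Mfsd2a (6 of 12), Slc27a1 and Fabp1 (1 each), and 6 of the 14 Cpt2 KO-only ones came from Slc27a1, with 2 each from Fabp1 and Fabp2 and 1 each from Slc27a2, Slc27a4, Acsl1 and Acsl5. Cd36 had 0 H3K9ac intervals, also in the Cpt2 KO liver, which is a different pattern from its H3K27ac. All tested start intervals of H3K27ac overlapped H3K9ac in both livers, as did the interval near Urm1, while the upstream Acsl5 interval overlapped none.

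A further 30 genes of fatty acid handling (other Slc27a, Acsl, Fabp, Acsm, Acss and Acbd genes, lipases and receptors) serve as a comparison. Of these, 23 had H3K27ac intervals, of which 38 were called in all 8 livers. For Ppara 1 was higher and 2 were lower: 1 interval of Lipc, hepatic lipase, rose by 1.09 ± 0.17 (SE) on the log2 scale (limma, Benjamini-Hochberg adjusted p = 0.00259), and Acsm5, a medium-chain acyl-CoA synthetase, and Acbd4, an acyl-CoA-binding protein, fell by 0.93 ± 0.19 (SE) and 0.73 ± 0.17 (SE) at 1 interval each, with adjusted p of 0.0118 and 0.0190. For Cpt2 0 were higher and 10 lower, in Acbd4, Scarb1, Acss2, Lipc and Acsm5. The median log2 difference for Ppara over the 38 was -0.13, beside -0.21 over the 19 of the 10 genes. None of the 49 tested H3K4me1 intervals of these genes passed for Ppara or Cpt2. Fabp3 resembled Cd36: of its 3 H3K27ac intervals, 2 and 3 were called in the Cpt2 KO livers and 0 in any other. Its 2 H3K4me1 intervals were likewise called only in the Cpt2 KO livers.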

How the data were processed

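Chromatin immunoprecipitation libraries for H3K27ac and H3K4me1 from 8 livers each, and for H3K9ac from 2, were analysed as deposited. Per the submitters' processing notes, the tools were BWA and MACS2 2.1.0 and the build mm10; their settings are not given in the sources used here. The deposited peak lists give, for each peak called in a library, its fold over background, a ratio by the authors' peak caller, and a p-value and q-value as -log10, and the authors' consensus sets join peaks of libraries; H3K9ac is used by position only. The pooled input was not analysed here. Peak names in 1 H3K27ac library, Ppara KO replicate 2, carry another build word than mm10, and its positions were used as given.

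Interval values are the highest fold of the peaks overlapping by at least 1 base. Log2 folds were centred on each library's median and fitted with limma 3.58.1 (R 4.3.3) on 4 genotype means, with moderated variance following mean level, over the intervals called in all 8 libraries; p-values were adjusted over all of them by Benjamini-Hochberg, with 0.05 as the threshold. The fold cannot be turned back into reads, and intervals without a call in a library have no value, so the tested set leaves out losses of calls, which were counted separately. The fit was also run on simulated folds with independent noise per library, for intervals called in all 8 libraries. Such a simulation cannot show the effect of missing calls or of library properties that go with genotype. Promoter sequences and gene positions come from RefSeq (GRCm38.p6); all 10 symbols matched. Tables were read with Python 3.11.15.

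The intervals named are, for each gene and mark, the one with the highest mean fold, every interval that passed for Ppara, Cpt2 or their interaction, and every interval called in at least 3 of 4 livers of one state and in 0 of 4 of the other; further intervals at starts and those of Cd36 and Fabp2 were chosen after their values were seen. Genes and lists were chosen with earlier results of these data known. Marker lists were of hepatocytes, macrophages, endothelium, stellate cells, cholangiocytes (5 of 6 genes never called for H3K27ac) and adipocytes (12 to 17 H3K27ac calls per liver). The replicates carry different animal numbers in their peak names, and the labels do not say how the livers were drawn. H3K27ac and H3K4me1 libraries of the same genotype and replicate carry the same animal number, so the marks do not stand for separate animals. The p-values set a difference against the spread between livers of the same genotype in these samples. Alternatives were no centring, quantile normalization, a stricter q, a 50% overlap, filling of missing calls, the smallest peak width as a covariate, the replicate number as a block, and leaving out each library.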

Additional observations from a re-analysis of the deposited data

Results flagged for a closer look

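At 6 intervals of the 10 genes, loss of 1 gene went with opposite moves in the presence and in the absence of the other, in both livers of each genotype, after log2 folds were centred on the median of their library. In the folds as deposited, 5 of the 6 had overlapping livers in at least 1 of the comparisons involved, and the interval upstream of Fabp1 in H3K4me1 had none. For H3K27ac after loss of Cpt2, this was seen at the start of Acsl5 (chr19:55253009-55254424), where the effect without Ppara minus that with Ppara was 0.66 on the log2 scale, just upstream of Acsl1 (chr8:46469413-46470692), where it was -1.03, and at the interval in Pgls near Slc27a1 (chr8:71590942-71594156), where it was 0.34. For H3K27ac after loss of Ppara, the start of Fabp2 (chr3:122894626-122896526) had a difference of -0.91 between the effects without and with Cpt2. For H3K4me1, the interval upstream of Fabp1 (chr6:71190190-71191171) had a difference of -0.76 and was seen for both deletions, and the one over its start (chr6:71193053-71202673) had a difference of 0.78 for loss of Cpt2.

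None of the 6 passed the test of the interaction itself, with adjusted p from 0.236 for Acsl1 to 0.583 for Slc27a1 in H3K27ac and 1.00 for both Fabp1 intervals in H3K4me1 (limma, Benjamini-Hochberg). Such opposite moves were found at 7.58% of all tested H3K27ac intervals for Cpt2 and 8.63% for Ppara, and at 3.79% and 3.45% of H3K4me1 intervals.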

How the results depend on the processing

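The fold test reads only intervals called in every library, so a mark lost below the calling threshold enters it only by the settings that fill in missing calls, and without read totals the depth behind a missing call is unknown. Filling each missing value with the lowest fold of its library gave 31 H3K27ac calls of the 10 genes for Ppara, 17 for Cpt2, 12 for the interaction, 12 for Ppara KO, 19 for Cpt2 KO and 27 for DKO against WT (all intervals 9852, 12034, 5024, 6056, 10735 and 14677, from 1342, 2245, 1, 1173, 2469 and 3685). By construction that setting tests more intervals, 60 of the 10 genes and 47873 in all, in place of 19 and 18281. With the smallest peak width as a covariate there were 0 calls for Cpt2 and for each genotype against WT, and 713 of all intervals for Ppara, 17 for Ppara KO against WT and 0 for the other comparisons with WT and for Cpt2; the log2 differences of DKO from WT at the starts of Mfsd2a and Acsl1 reversed to 0.69 and 0.036. Without centring, which moved the median Cpt2 difference of all intervals by 0.25, Cpt2 had 4 calls (3504 higher and 432 lower of all 3936, in place of 896 and 1349) and the interaction 8 over all. At a -log10 q of at least 10, Ppara KO against WT had 2 calls, 2 H3K27ac intervals were gained by call without Cpt2 and 0 H3K4me1 intervals without Ppara. In H3K27ac the smallest peak width was greater in every Cpt2-null than in every Cpt2-intact library. The fit with this covariate therefore cannot judge the Cpt2 calls or the DKO differences from WT. The cause of these changes was not tested.

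Leaving out 1 library at a time gave 5 to 6 H3K27ac calls for Ppara, 1 to 3 for Cpt2, 0 to 4 for Ppara KO (0 without WT replicate 2), 1 to 5 for Cpt2 KO and 2 to 8 for DKO against WT, and 0 to 1 H3K4me1 calls for Ppara (1 without Cpt2 KO replicate 1). Over all intervals the same fits gave 469 to 1528 calls for Ppara and 691 to 2492 for Cpt2 in H3K27ac; in H3K4me1 they gave 0 to 1015 for Ppara, in place of 25, and 0 to 999 for DKO against WT, in place of 26. For H3K4me1 over all intervals, Ppara had 7 calls under quantile normalization, 48 with filling and 0 with the width covariate, and DKO against WT had 3 without centring, 1 at the stricter q and 0 with the width covariate. With the replicate number as a block, H3K27ac had 6 calls for Ppara and 2 for Cpt2, 5 for Cpt2 KO and 8 for DKO against WT, and H3K4me1 had 0 over all intervals for Ppara; correlations between same-numbered livers were -0.0649 to 0.172 for H3K27ac and -0.489 to 0.101 for H3K4me1, so the numbers do not pair the livers.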
